A study of Mus musculus with 2 samples.

Results

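Type I interferon-stimulated genes were followed across leukocytes from pancreatic islets of the NOD mouse, in which the immune system attacks the islet beta cells. The set was a fixed list of 46 gene symbols, matched by name to the 32285 genes of the count tables. Of the 46, 45 were measured, and Mx1 was not analysed here. All 45 had at least 1 unique molecular identifier (UMI, the tag that marks 1 captured transcript). There were 2 groups, each made of 1 single-cell 3′ library of live CD45+CD31- cells sorted from hand-picked islets of female mice aged 12 weeks: WT NOD, the NOD strain with no change named, and NOD.Cxcl16-/-, the same strain with both copies of Cxcl16, a chemokine gene, mutated. No treatment is given for either, and how many mice went into each library is not given in the sources used here. With 1 library per group, genotype and library cannot be told apart, so no test between the groups was made, and every interval below covers counting error only.

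Type I interferons are secreted proteins that signal through a receptor made of Ifnar1 and Ifnar2. The kinases Jak1 and Tyk2 then phosphorylate transcription factors such as Stat2, which joins Irf9 and binds a short promoter element, the interferon-stimulated response element. The genes switched on include sensors of viral nucleic acid, proteins that block viral replication, and parts of the pathway itself. In NOD mice a type I interferon signature in the islets is known to precede overt disease.

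The promoters are shown first because the response element is what many of these genes share. Promoter windows of 300 bases, 250 before to 50 after the transcription start, came from RefSeq (GRCm38.p6) and matched 37 of the 46 symbols. The core searched was TTTC, any 2 bases, TTTC, on either strand, with overlapping matches counted. It was found for 18 of the 37 genes (48.6%), against 3.99% of 27025 symbols, and in 20 of 46 windows (43.5%), against 3.44% of 32851 windows. The stretches below are on each gene's own strand, 5′ to 3′, and all end before the transcription start. Capitals mark the core or overlapping cores. The stretches were chosen among members with the core, for some that later differ between the libraries or between cells (Ifit3, Ifit3b, Ifit1, Isg15, Oas1a). They do not stand for all such members. Irf7, Cmpk2 and Slfn1 also differ and have a window without the core, and Slfn5 has the core but is not printed. Added for contrast were a gene with by far its highest level in 1 cell type (Bst2), a gene high in macrophages (Rsad2) and a gene that was even over cells (Stat2).
Isg15, chr4:156200849-156200910, minus strand: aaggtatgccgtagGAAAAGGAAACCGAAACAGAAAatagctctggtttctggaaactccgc
Ifit1, chr19:34640778-34640839, plus strand: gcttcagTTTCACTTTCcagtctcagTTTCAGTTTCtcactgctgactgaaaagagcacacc
Ifit3, chr19:34583381-34583442, plus strand: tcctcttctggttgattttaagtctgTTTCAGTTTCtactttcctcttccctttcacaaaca
Ifit3b, chr19:34607777-34607838, plus strand: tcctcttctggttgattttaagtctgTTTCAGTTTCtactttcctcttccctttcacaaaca
Oas1a, chr5:120907526-120907565, minus strand: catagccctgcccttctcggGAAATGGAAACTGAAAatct
Rsad2, chr12:26456537-26456598, minus strand: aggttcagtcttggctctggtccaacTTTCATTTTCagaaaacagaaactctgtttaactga
Bst2, chr8:71537561-71537622, minus strand: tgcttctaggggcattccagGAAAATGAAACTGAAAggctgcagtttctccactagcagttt
Stat2, chr10:128270250-128270311, plus strand: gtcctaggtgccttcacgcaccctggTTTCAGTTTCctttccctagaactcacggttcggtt

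The Ifit3 and Ifit3b stretches are the same base for base. Ifit1, Ifit2, Ifit3 and Ifit3b lie within 1 cluster on chromosome 19, where Ifit3 spans 34583531 to 34588731 and Ifit3b 34607970 to 34613401 (GENCODE M21, GRCm38). Reads that match both copies equally well may have been lost or split, so their counts are uncertain, as are those of Trim30a and Trim30d, of Phf11b and Phf11d, and of the Oas1 family.

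The WT NOD library held 13859 barcodes with a median of 3808 UMIs, and the library labelled NOD.Cxcl16-/- held 10554 with a median of 5054. Barcodes with at least 500 genes and at most 10% mitochondrial UMIs were kept, 12252 and 10214. The libraries shared 41 kept barcode sequences. Cxcl16 transcript was read at 103 CPM (counts of a gene per 1000000 UMIs) in WT NOD and at 102 CPM in the library labelled NOD.Cxcl16-/-. In the macrophage gate defined below, where it was high, it read 844 and 496 CPM (611 and 844 UMIs). Which exons were removed is not in the labels, and a 3′ tag outside the removed part checks nothing. The group is therefore called the library labelled NOD.Cxcl16-/-. Cells were placed in 14 types by UMIs of lineage markers, none of them a member of the interferon list. Barcodes that passed 2 lineages (1290 and 1112) were left out as likely doublets, and 1126 and 850 passed none. T cells with UMIs for neither or both of the CD4 and CD8 genes, or with other mixed subset markers, were kept apart as other T cells (2727 and 1769). Of the 10 leading genes of each gate none was a member, and the gate's own markers were among them in every gate. The gamma-delta T gate was also led by the NK receptor genes Ncr1 and Klra5, and the macrophage gate by the insulin genes Ins1 and Ins2.

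In WT NOD and in the library labelled NOD.Cxcl16-/- respectively, the gates held 2718 and 1592 CD8 T cells, 1381 and 1371 CD4 T cells, 304 and 452 regulatory T cells (Treg), 260 and 197 gamma-delta T cells and 74 and 62 NK cells. They held 1979 and 2202 B cells, 86 and 133 plasma cells, and 77 and 154 macrophages. Dendritic cells (DC) numbered 66 and 101 cDC1, 46 and 86 cDC2, 38 and 50 migratory DC and 57 and 39 plasmacytoid DC. ILC2 (20 and 36) and monocytes (3 and 8) were too few to compare between libraries.

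Summed over the 45 members, the level was highest in plasmacytoid DC and lowest in plasma cells, monocytes left aside for their few cells. Plasmacytoid DC read 7168 CPM (95% Poisson interval 6936 to 7406) in WT NOD and 5931 (5683 to 6187) in the library labelled NOD.Cxcl16-/-. Plasma cells read 1350 (1305 to 1396) and 1048 (1016 to 1081). Between them in WT NOD stood macrophages at 5920 CPM, Treg at 5909, migratory DC at 5260, CD4 T cells at 4712, cDC2 at 4127, CD8 T cells at 3728, B cells at 2753, gamma-delta T cells at 2682, NK cells at 2481 and cDC1 at 2084. Macrophages and Treg did not differ beyond their counting intervals (5744 to 6100 and 5812 to 6007), while the CD4 and CD8 T-cell levels did (4668 to 4756 and 3702 to 3755). Each of these sums is a level in CPM of the gate, from 3′ tags, which do not scale with transcript length. The order of the lymphocyte gates depended on 1 gene, Ifi27l2a. Without it the WT NOD sums were 2673 CPM in Treg, 2412 in NK cells, 2345 in gamma-delta T cells, 2273 in CD4 T cells, 2087.5 in B cells and 2040 in CD8 T cells.

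A handful of genes carried most of the sum. Ifi27l2a, which encodes a small interferon-induced membrane protein, made up 45.3% of member UMIs in WT NOD CD8 T cells and 51.8% in CD4 T cells, and Shisa5, an endoplasmic reticulum protein, 14.2% and 13.0%. Ifi27l2a was highest in the T-cell gates other than gamma-delta T cells, monocytes left aside for their few cells. It read 3236 CPM in WT NOD Treg, 2439 in CD4 T cells and 1688 in CD8 T cells. Myeloid and B cells had it as well, with 1115 in macrophages, 839 in cDC2 and 666 in B cells. Gamma-delta T cells read 337 and NK cells 68.5. The share of cells with a UMI was 92.9% of WT NOD CD4 T cells (median 4372 UMIs) and 18.9% of NK cells (median 3697), which serve as the gate with little Ifi27l2a. In the other library the shares were 90.8% of CD4 T cells and 4.84% of NK cells, with median depths of 4844 and 4068 UMIs. Shisa5 was higher in lymphocytes than in myeloid cells: 976 CPM in WT NOD NK cells, 800 in Treg and 529 in CD8 T cells, against 146 in macrophages and 49.4 in migratory DC.

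Bst2 encodes tetherin, which holds budding virus on the cell surface and is also a surface marker of mouse plasmacytoid DC. It read 4359 CPM (4178 to 4545) in plasmacytoid DC of WT NOD and 3962 (3760 to 4173) in those of the other library, and the next gate, macrophages, read 649 and 511. Bst2 alone was thus more than all other members of plasmacytoid DC together. Epsti1 was highest in migratory DC, at 1293 and 914 CPM, against 299 and 246 in plasmacytoid DC, and so was Phf11b, at 300.0 and 284. Sp100, a component of nuclear bodies, was spread over all gates and highest in B cells (283 and 252 CPM). Ifi35 and Zbp1, a sensor of Z-form nucleic acid, had flatter profiles, the highest gate standing 1.70 and 2.01 times above the median gate, and completed the 8 members with the highest mean level over all gated cells.

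**Figure D1:**
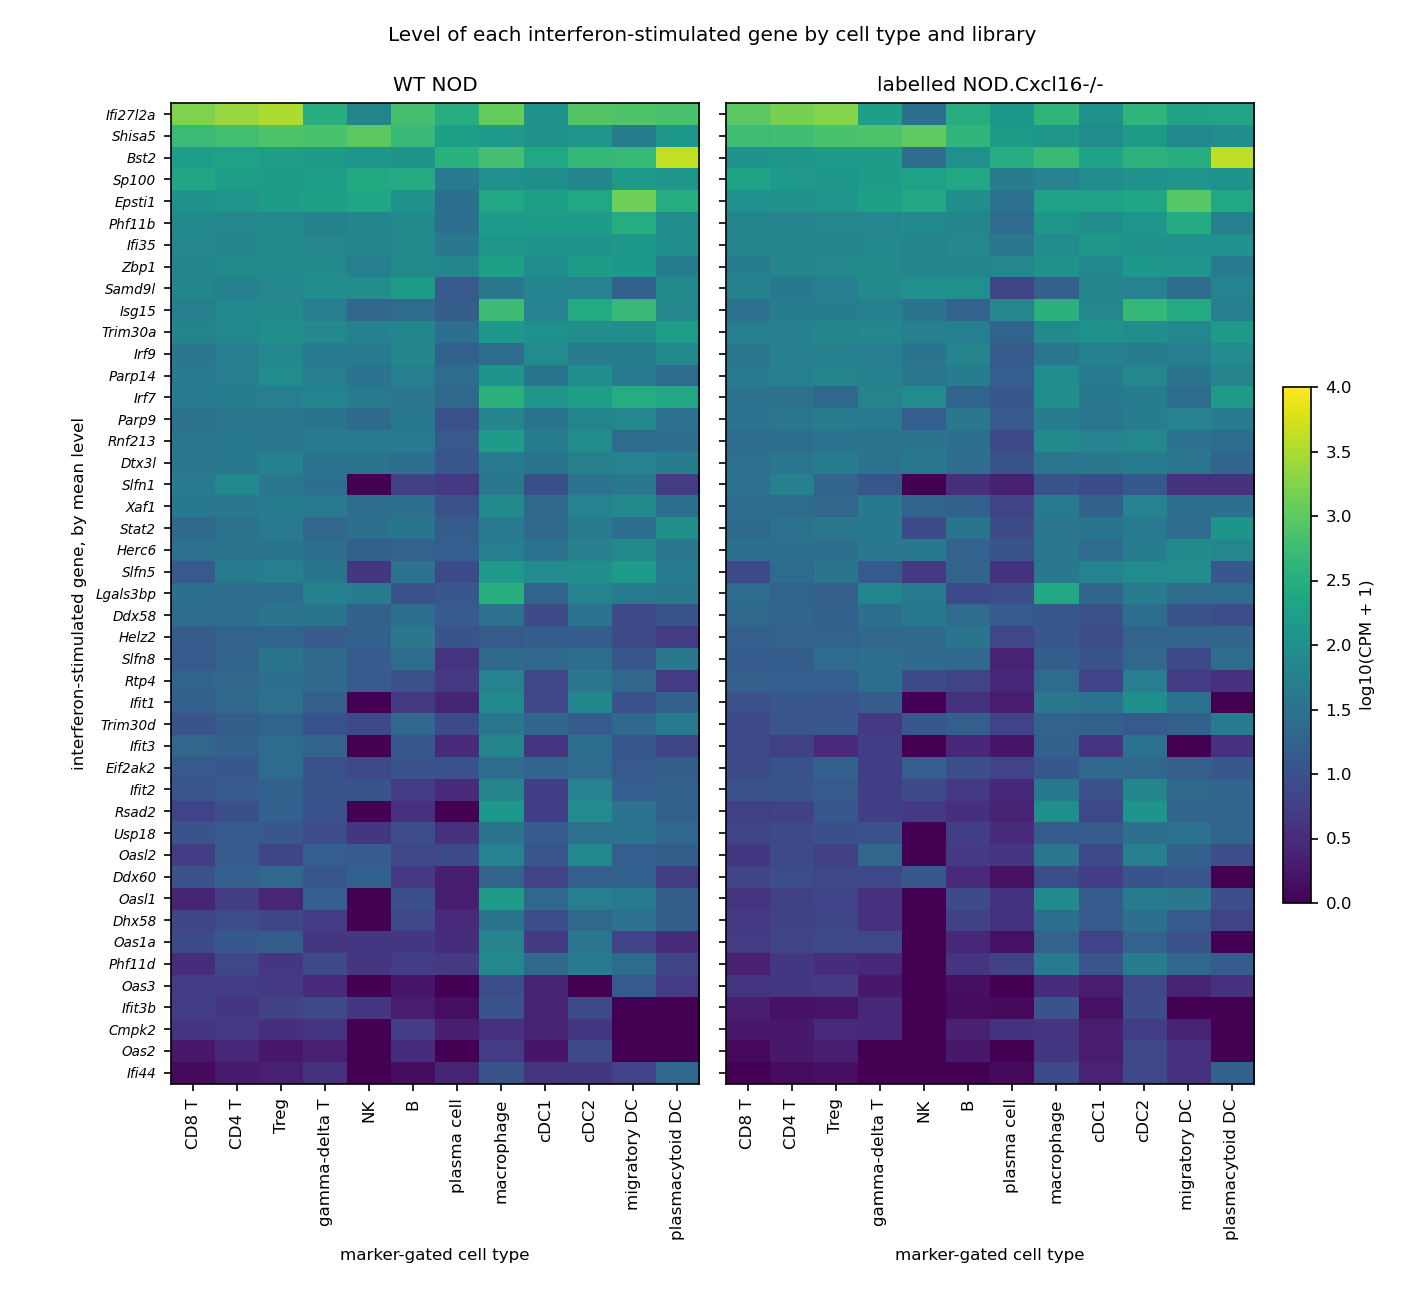
Level of each of the 45 members (rows, by mean level) in 12 marker-gated cell types (columns) for WT NOD (left) and the library labelled NOD.Cxcl16-/- (right), as log10(CPM + 1). Ifi27l2a is bright over the T-cell columns, Bst2 in plasmacytoid DC, where it read 4359 and 3962 CPM, and Isg15 and Irf7 in macrophages.

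By gate, most members were highest in macrophages or DC. Of the 45 members, 14 had their highest level in macrophages, 8 in migratory DC, 7 in plasmacytoid DC and 6 in cDC2, by the mean of both libraries. The highest gate was the same in both libraries for 23 members. The macrophage and DC gates held few cells. The share of all genes with their highest level in these gates was not computed, so the counts describe the list and are not shown to be particular to it. The 5 OAS genes, a family whose active members sense double-stranded RNA and switch on RNase L, summed to 296 CPM in WT NOD macrophages, 166 in cDC2 and 78.7 in migratory DC, against 37.7 in cDC1, 35.6 in CD4 T cells, 33.7 in plasmacytoid DC, 21.1 in B cells and 17.9 in CD8 T cells. The 4 IFIT genes, which bind viral RNA, summed to 218 CPM in macrophages, 159 in cDC2, 54.2 in CD4 T cells, 51.1 in CD8 T cells and 19.95 in B cells. The other DC gates were below the T cells for the IFIT genes, at 37.6 CPM in plasmacytoid DC, 34.8 in migratory DC and 15.1 in cDC1. Rsad2 encodes viperin, which makes a chain-terminating nucleotide, and its mean over both libraries was 117 CPM in macrophages, 17.4 times the median gate.

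The nucleic acid sensors were flatter. Ddx58 (RIG-I), Dhx58, Ddx60, Zbp1 and Eif2ak2 (the kinase PKR) together read 294 CPM in WT NOD macrophages, 138 in CD4 T cells, 127 in B cells and 116 in CD8 T cells. The ADP-ribosylation genes Parp9 and Parp14 and the partner ubiquitin ligase Dtx3l read 225, 128, 121 and 113 CPM in the same gates. Irf9, the DNA-binding partner of Stat2, read 38.2 CPM in WT NOD CD8 T cells, 67.9 in B cells and 26.2 in macrophages, and its highest gate was plasmacytoid DC, with a mean of 80.05 over both libraries. Irf7, which amplifies interferon transcription, was a myeloid and plasmacytoid DC gene in WT NOD: 370 CPM in macrophages and 252 in plasmacytoid DC, against 44.1 in CD8 T cells. Isg15, the ubiquitin-like protein attached to targets during the response, read 548 CPM in macrophages and 498 in migratory DC, against 51.9 in CD8 T cells and 23.7 in B cells. Among the Schlafen genes, which restrain translation or proliferation, Slfn1 was highest in CD4 T cells, with a mean of 63.9 CPM over both libraries.

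Other members had profiles of their own. Lgals3bp, a secreted glycoprotein, was sharply a macrophage gene: 316 and 239 CPM there, WT NOD first, against 28.1 and 24.3 in CD8 T cells and 9.41 and 6.85 in B cells. Samd9l, an antiviral factor that blocks translation, read 153 and 99.3 CPM in B cells, 94.7 and 99.2 in NK cells, 66.6 and 57.0 in CD8 T cells and 38.7 and 15.9 in macrophages. B cells were thus its highest gate in WT NOD, while in the other library B and NK cells were level. Rnf213, a large ubiquitin ligase, read 159 and 79.97 CPM in macrophages and 35.8 and 25.9 in CD8 T cells. Trim30a, a negative regulator of innate signalling, was highest in plasmacytoid DC (172 and 141 CPM). The members with the lowest mean level over gated cells were Ifi44, Oas2 (1.15 CPM), Cmpk2 (2.36), Ifit3b (2.42) and Oas3 (3.101). Ifi44 had 5 and 0 UMIs in CD8 T cells but 11 and 6 UMIs in the few plasmacytoid DC.

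Whether a member was even over cells or sat in few of them was read after each cell had been thinned to 2000 UMIs at random (20 draws, values are their means). For each member, cells of a gate were ranked by the UMIs of all other members, and the percent of the member's UMIs in the top 5% of cells was taken. A gene unrelated to the rest gives about 5 percent: the median over 7084 other genes in WT NOD CD8 T cells was 4.88%, and their 95th percentile 7.11%. The 30 members with at least 50 thinned UMIs had a median of 14.8%, from 6.81% to 46.2%. A total of 5 members exceeded 20% and 3 were under 10%. Because the score is built from members, a shift of the whole list is part of the measure.

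Ifit3, Ifit1, Isg15, Slfn5 and Rtp4 were the members that sat most in few T cells. In WT NOD CD8 T cells the top 5% of cells held 46.2% of Ifit3 UMIs, 40.9% of Ifit1, 34.5% of Slfn5, 24.3% of Isg15 and 22.0% of Rtp4, the last a chaperone of membrane receptors. The variance of Ifit3 counts per cell was 2.04 times their mean, and 3.94% of cells had an Ifit3 UMI. In WT NOD CD4 T cells the order was alike: 55.2% for Ifit3, 53.7% for Ifit1, 33.2% for Isg15, 30.9% for Slfn5 and 27.9% for Rtp4. In WT NOD B cells Slfn5 led with 34.7%, followed by Isg15 at 31.2%, Irf7 at 24.6%, Xaf1 at 21.4% and Trim30a at 18.1%. Only 3 members had enough UMIs in the 55 thinned WT NOD macrophages: Ifi27l2a (24.4%), Isg15 (23.1%) and Bst2 (7.48%).

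Other members were more even over cells. In WT NOD CD8 T cells the lowest values were 6.81% for Shisa5, 6.87% for Irf9, 8.005% for Sp100, 10.1% for Ifi27l2a and 10.4% for Epsti1. Shisa5 and Irf9 were thus below the 95th percentile of other genes. In WT NOD CD4 T cells they were Stat2 (7.19%), Irf9 (8.08%), Helz2 (9.38%), Shisa5 (9.46%) and Slfn8 (10.2%), and in WT NOD B cells Irf9 (7.51%), Shisa5 (8.77%), Helz2 (8.81%), Sp100 (8.89%) and Epsti1 (9.41%). Ifi27l2a was both widespread and uneven: 74.1% of thinned WT NOD CD8 T cells had a UMI, yet its variance was 7.16 times its mean and single cells reached a mean maximum of 52.3 UMIs.

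In the library labelled NOD.Cxcl16-/- the percents in the top cells were lower. The median percent in the top 5% of cells was 8.86% in CD8 T cells (26 members, 4.90% over 6136 other genes), 8.38% in CD4 T cells (25 members) and 8.38% in B cells (24 members). The WT NOD medians in CD4 T and B cells were 14.0% and 14.3%. These sets differ, since Ifit3 and Ifit1 had enough UMIs only in WT NOD. Over the members with enough UMIs in both libraries, the medians were 12.9% and 8.86% in CD8 T cells (26 members, 24 of them lower in the library labelled NOD.Cxcl16-/-), 13.9% and 8.38% in CD4 T cells (24 of 25 lower) and 14.2% and 8.38% in B cells (24 of 24 lower). Each member is ranked by a score built from the others, so these directions are not independent. The share of other genes that were lower by this measure was not computed. The most concentrated member placed among CD8 T cells of that library was Isg15, at 15.3%. Ifit3, Ifit1 and Slfn5 had too few UMIs there to be placed, so their concentration cannot be compared between the libraries in that gate. In CD4 T cells Zbp1 (13.2%), Rtp4 (13.0%), Slfn5 (13.0%) and Isg15 (12.9%) led and Stat2 was lowest (4.69%). In B cells Slfn5 led with 22.6% and Helz2 was lowest (5.15%).

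**Figure D2:**
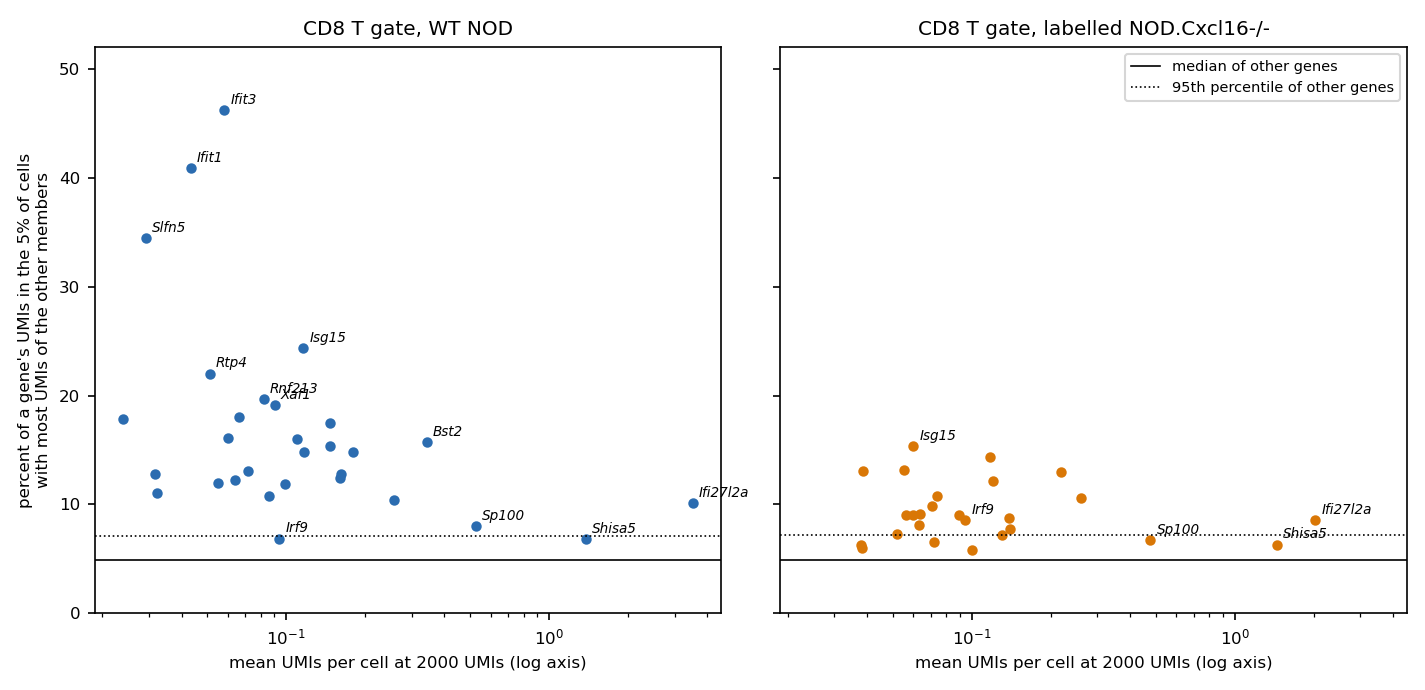
Percent of each member's UMIs in the 5% of CD8 T cells with most UMIs of the other members (y axis) against its mean UMIs per cell at 2000 UMIs (x axis, log), for members with at least 50 UMIs in WT NOD (left) and the library labelled NOD.Cxcl16-/- (right). Ifit3, Ifit1 and Slfn5 stand at 46.2%, 40.9% and 34.5% in WT NOD. In the other library these genes had too few UMIs to be shown, and no member shown is above 15.3%. The lines mark the median and 95th percentile of other genes.

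The number of different members detected in a cell gives the same pattern from the side of the cells. At 2000 UMIs a WT NOD CD8 T cell had on average 4.36 members and a CD8 T cell of the other library 3.79. Cells with 8 or more members made up 9.42% of 2209 WT NOD CD8 T cells (95% Clopper-Pearson interval 8.23 to 10.7) and 4.75% of 1525 in the library labelled NOD.Cxcl16-/- (3.71 to 5.91). The cells with 8 or more members held 22.5% and 11.2% of all member UMIs of their gates. The class is a range cut from a continuous count: 194 and 103 CD8 T cells stood at 7 or 8 members.

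The same order was seen in the other large gates. The share with 8 or more members was 10.4% and 5.07% in CD4 T cells, 13.5% and 7.33% in Treg, 10.9% and 6.10% in other T cells and 5.93% and 2.61% in B cells, WT NOD first. The intervals, such as 9.75 to 18.1 and 5.04 to 10.1 in Treg, cover the counting of cells only. They do not compare the genotypes. Macrophages had 37% (23.8 to 50.4) of 55 cells and 11.8% (6.60 to 18.3) of 130. In cDC2 the shares were 20.3% (9.36 to 33.9) and 18.7% (11.0 to 28.4). At 12 or more members the gap was wider: 2.39% against 0.325% of CD8 T cells, 2.22% against 0.516% of CD4 T cells and 1.16% against 0.164% of B cells. At 15 or more there were on average 25.4 CD8 T cells in WT NOD and 0.55 in the other library. Without thinning, more members were found per cell, and the cells of the library labelled NOD.Cxcl16-/- were deeper in each of the gates that follow. The order then turned in CD8 T cells (47.3% and 51.7%) and in other T cells (33.3% and 38.2%), and Treg were level (57.9% and 57.7%). The shares were 46.6% and 44.1% in CD4 T cells, 35.8% and 32.8% in B cells and 63.6% and 60.4% in macrophages. A total of 509 WT NOD and 67 other CD8 T cells were shallower than 2000 UMIs and are not in these shares.

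**Figure D3:**
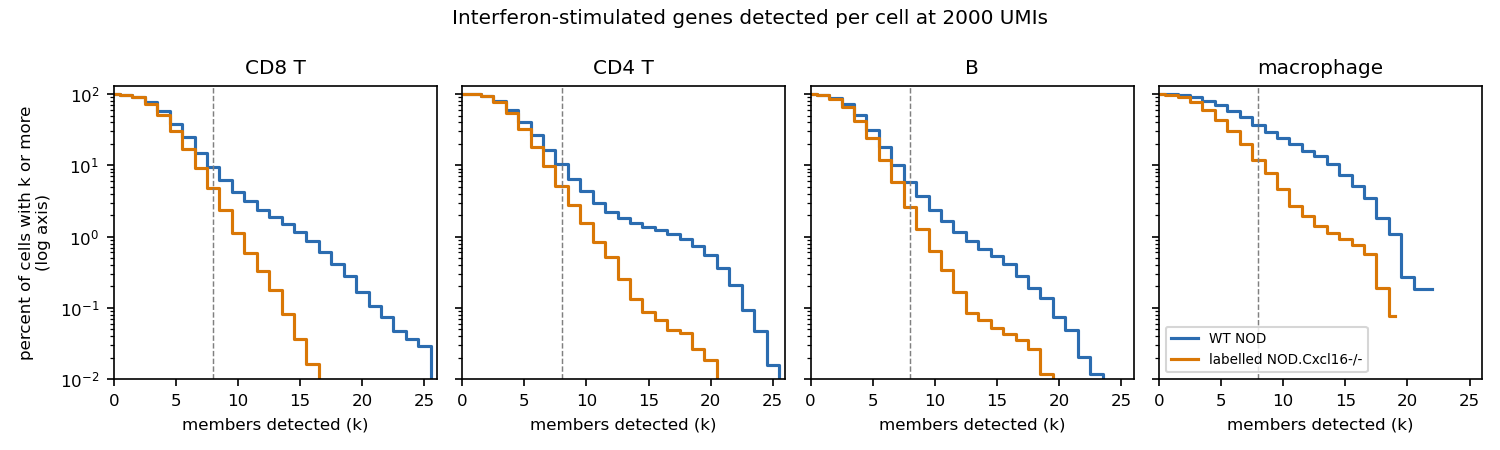
Percent of cells (y axis, log) with k or more interferon-stimulated genes detected (x axis) at 2000 UMIs per cell, for CD8 T, CD4 T, B and macrophage gates, WT NOD in blue and the library labelled NOD.Cxcl16-/- in orange, means of 20 draws. The WT NOD curve lies above the other from about 4 members on, and at the dashed line of 8 members reads 9.42% against 4.75% in CD8 T cells.

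The CD8 T gate asks for T-cell markers and leaves out barcodes that passed 2 lineages. Marker medians within it were therefore largely set by the gate. The WT NOD CD8 T cells with 8 or more members had a median of 11 UMIs of T-cell markers at 2000 UMIs, against 12 in the remaining CD8 T cells. The median of each of the other lists (B, plasma, macrophage, monocyte, DC, NK, islet endocrine) was 0 in both. At least 1 UMI of macrophage markers was found in 3.90% of the former and 3.79% of the latter, and of migratory DC markers in 20.98% and 16.5%. In CD4 T cells of the library labelled NOD.Cxcl16-/- macrophage markers were found in 14.8% of 61 cells with 8 or more members and 5.41% of the rest, and in Treg in 15.6% of 32 cells and 5.65%, while in WT NOD CD4 T cells these were 2.36% and 3.83%. Their part in the class was not tested. The cycling genes Mki67, Top2a, Birc5 and Ube2c were read in 17.1% and 31.3%. Median depth before thinning was 5274 and 5700 UMIs. Genes outside the list that were highest in these cells were known interferon-induced genes as well: Ifih1, the RNA sensor MDA5, read 53.9 CPM against 8.07 in the remaining cells, a ratio of 6.05 with 1 CPM added to each. It was followed by Ifi206 (4.68), Phf11c (4.15), Daxx (4.04), Iigp1 (4.03), Pml (3.72), Ifi209 (3.56), Gbp6 (3.55), Ifi214 (3.51) and Isg20 (3.36). The same 10 genes had ratios of 2.36 to 5.78 in CD4 T cells and 1.52 to 6.87 in B cells of WT NOD. They were picked on the CD8 T cells, for which their ratios are a description.

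Between the libraries, most members were lower in the library labelled NOD.Cxcl16-/- in the large lymphocyte gates and in macrophages. The ratio is log2 of (CPM + 1) in that library over (CPM + 1) in WT NOD, for members with at least 10 UMIs in a gate. In CD8 T cells 13 of 44 members were lower by 1.5-fold or more, where 2.03% of all genes were, and 1 was higher (2.09% of all genes). In CD4 T cells 17 of 45 were lower (4.46%) and 0 higher (2.12%). In B cells 14 of 44 were lower (2.58%) and 0 higher (4.67%). In macrophages 26 of 43 were lower (12.6%) and 0 higher (15.4%). The median ratio of the members was -0.35 in CD8 T cells, -0.44 in CD4 T cells, -0.31 in B cells and -0.74 in macrophages, beside medians over all genes of 0.02, -0.01, 0.04 and -0.01. Fewer cells with many members and less RNA per cell cannot be told apart from a sum over cells. With the cells of 8 or more members left out, the medians were -0.14, -0.28, -0.16 and -0.32.

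The remaining T-cell gates and plasma cells gave like values, with more scatter in small gates. Treg had 15 of 43 members lower (6.83% of all genes) and 1 higher (6.35%), with a median of -0.39. Other T cells had 18 of 45 lower (2.6%) and 0 higher (2.47%), with a median of -0.41; after Ifit3 (-1.49) the lowest there were Phf11d (-1.16) and Oas1a (-1.15), and the highest Parp14 (0.13), Irf9 (0.11) and Helz2 (0.04). Plasma cells had 13 of 36 lower (10.6%) and 3 higher (7.32%), with a median of -0.34. Gamma-delta T cells had 12 of 40 lower (10.5%) and 2 higher (10.7%) but a median of only -0.07. In cDC1, 6 of 40 were lower (10.4%) and 3 higher (13.8%), and in NK cells 4 of 24 were lower (15%) and 5 higher (16.2%), with medians of -0.06 and 0.09. In those last 2 gates the shares are near those of all genes.

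**Figure D4:**
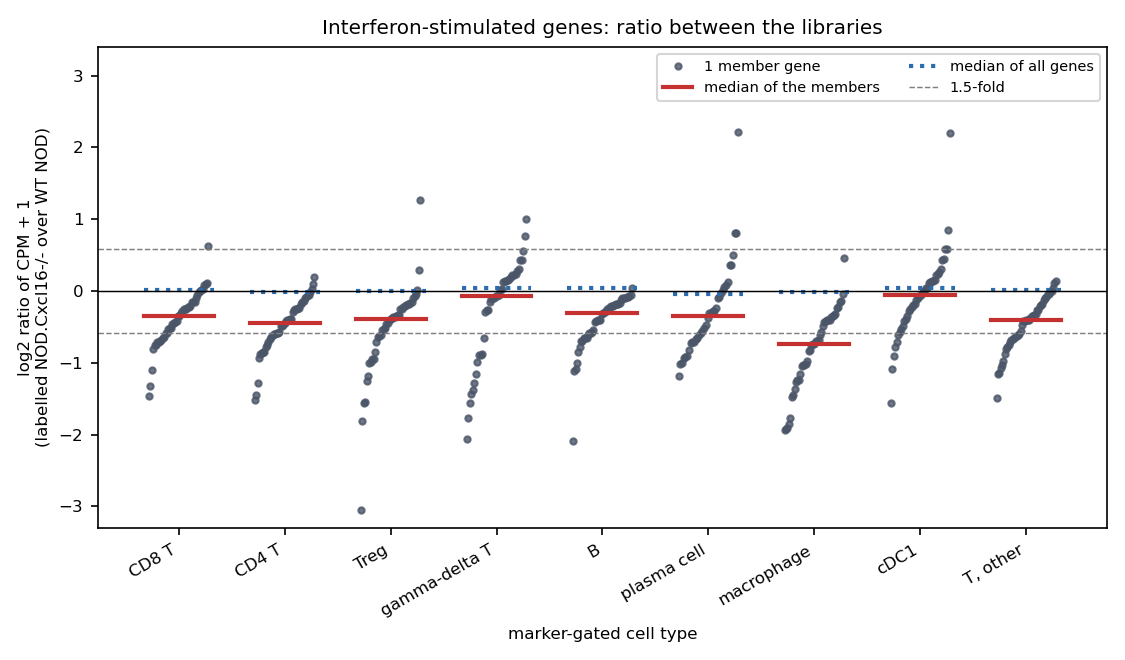
Log2 ratio of each member (points) between the library labelled NOD.Cxcl16-/- and WT NOD in 9 gates, with the median of the members (solid red line), the median of all genes (dotted blue line) and 1.5-fold either way (dashed lines). The members' median is -0.74 in macrophages and -0.35 in CD8 T cells, and near 0 in gamma-delta T cells and cDC1.

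Ifit3 had the largest ratio toward WT NOD in the CD8 T, CD4 T, Treg and B gates. It read 20.3 CPM (417 UMIs) in WT NOD CD8 T cells and 6.72 CPM (93 UMIs) in those of the other library, a log2 ratio of -1.46. The interval of that ratio from the counts, without the added CPM, was -1.93 to -1.26. In CD4 T cells Ifit3 read 15.6 and 4.78 CPM, in B cells 11.1 and 1.86, in Treg 25.1 and 2.13, the last from 60 and 9 UMIs. It was past 1.5-fold lower in 7 of the 8 gates where it had enough UMIs. Its near copy Ifit3b read 4.42 and 1.16 CPM in CD8 T cells, and 3.34 and 0.585 in CD4 T cells. Cmpk2, a mitochondrial nucleotide kinase next to Rsad2 on chromosome 12, read 3.01 and 0.867 CPM in CD8 T cells, 3.55 and 0.877 in CD4 T cells and 3.99 and 1.36 in B cells. Ifit1 read 31.8 and 10.2 CPM in Treg, and Ddx60, a helicase, 20.1 and 6.16.

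Ifi27l2a, read in most T cells, was also lower. It was past 1.5-fold lower in 9 of 10 gates, reading 1688 and 966 CPM in CD8 T cells, 666 and 307 in B cells and 1115 and 408 in macrophages. The one other gate, cDC1, read 113 and 109 CPM. Irf7 read 370 CPM (327 to 417) in WT NOD macrophages and 97.6 (83.3 to 114) in those of the other library, 37.3 and 18.2 in B cells and 298 and 24.9 in migratory DC. In NK cells it was the other way, at 42.4 and 84.5 CPM from 13 and 23 UMIs. In macrophages Slfn1, Ifit3, Slfn5 and Oas1a, named after their values were seen, had log2 ratios of -1.93, -1.92, -1.85 and -1.78. Macrophage values rest on 77 and 154 cells. With gates asking for double the marker level, chosen after seeing the data, the macrophage median was -0.44.

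Over the gates where a member had enough UMIs, Slfn5 was lower past 1.5-fold in 7 of 9, Ddx60 in 7 of 8, Ifit3b in 6 of 7, Oas1a in 6 of 8, Irf7 and Xaf1 in 6 of 10, Ifit1 in 5 of 8 and Usp18 in 5 of 9. Xaf1, a pro-apoptotic protein, read 40.1 and 25.1 CPM in CD8 T cells and 27.6 and 16.7 in B cells. Bst2 was lower past 1.5-fold in 2 of 10 gates, and Isg15 lower in 3 and higher in 2. These gates share their libraries, so they are not independent of each other.

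Other members were close between the libraries or higher in the one labelled NOD.Cxcl16-/-. Irf9 read 38.2 and 38.3 CPM in CD8 T cells, 51.2 and 55.1 in CD4 T cells and 67.9 and 65.1 in B cells, and Stat2 read 22.8 and 23.3, 31.6 and 29.8, and 34.5 and 35.4. Parp14 read 50.6 and 51.5 CPM in CD4 T cells. Shisa5 was within 1.5-fold in all 10 gates (log2 ratios of -0.34 to 0.12), as were Dtx3l and Epsti1, and Irf9. Of these, Shisa5, Irf9 and Epsti1 were also among the 5 members most even over WT NOD CD8 T cells. The others of those 5 were Sp100, lower past 1.5-fold in 1 of 10 gates, and Ifi27l2a, lower past it in 9 of 10. Oasl1, an OAS-like protein, differed by gate. It had the highest ratio in the CD8 T, CD4 T and Treg gates: 1.55 and 2.96 CPM in CD8 T cells (32 and 41 UMIs), 4.41 and 5.17 in CD4 T cells and 1.67 and 5.45 in Treg (4 and 23 UMIs). It was lower past 1.5-fold in 4 of 9 gates: 163 and 78.8 CPM in macrophages, 21.1 and 13.4 in cDC1, 14.6 and 2.72 in gamma-delta T cells (22 and 3 UMIs) and 7.59 and 4.27 in other T cells. In CD8 T cells Helz2 and Slfn8 came next, with log2 ratios of 0.11 and 0.10, and in Treg Parp9 with 0.29 and Dhx58 with 0.02. In B cells Stat2 (0.04), Irf9 (-0.06) and Rsad2 (-0.07) had the highest ratios. In plasma cells Isg15 read 14.4 and 70.2 CPM, although 17.4% of WT NOD and 15.8% of the other cells had a UMI. In cDC1 Ifit1 read 6.03 and 31.4 CPM (8 and 63 UMIs), and in cDC2 Isg15 read 277 and 453 CPM.

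Of the 9 role groups, the IFIT genes had the widest gap and the ADP-ribosylation genes the narrowest in CD8 T, CD4 T and B cells. The 4 IFIT genes summed to 51.1 CPM (48.0 to 54.2) and 25.6 (23.0 to 28.4) in CD8 T cells, 54.2 and 26.7 in CD4 T cells, and 19.95 and 8.71 in B cells. Parp9, Parp14 and Dtx3l summed to 113 (109 to 118) and 107 (102 to 113) in CD8 T cells, 128 and 125 in CD4 T cells, and 121 and 113 in B cells, with counting intervals that overlapped in each of these gates. The sensors summed to 116 and 86.8 CPM in CD8 T cells, and Isg15, its protease Usp18 and its ligase Herc6 to 92.5 and 65.5. In cDC2, with 46 and 86 cells, the IFIT genes read 159 CPM (128 to 195) and 198 (173 to 226) CPM.

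Members with the response element core in their promoter window had a median log2 ratio of -0.51 in CD8 T cells (18 members), against -0.24 for the 18 with a window without it. In CD4 T cells the medians were -0.50 and -0.44, in B cells -0.29 and -0.34, and in macrophages -0.88 and -0.69. The median percent of UMIs in the top 5% of WT NOD CD8 T cells was 15.9% over 12 members with the core and 12.4% over 13 without, and in CD4 T cells 18.6% over 11 and 13.7% over 13. The ranges overlapped throughout: among members with the core it ran from 6.81% to 46.2% in CD8 T cells. Ifit3 and Stat2, printed above with the same core letters, stood at opposite ends in CD4 T cells, at 55.2% and 7.19%.

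Other genes of the pathway came from lists outside the 46. In CD8 T cells 0 of 5 receptor genes, 0 of 5 signalling genes, 0 of 4 negative regulators and 0 of 10 genes with a strong interferon gamma response that had enough UMIs were past 1.5-fold lower, where 2.03% of all genes were. At that share, 0 is the likely count in lists this short. The median log2 ratios of these lists were 0.10, 0.23, 0.17 and 0.01. In CD4 T cells the medians of these 4 lists were 0.17, 0.13, 0.28 and -0.01, with 0 lower (4.46% of all genes). In B cells they were -0.01, 0.05, 0.05 and 0.09, with 0 lower (2.58% of all genes). Some were higher past 1.5-fold: 1 interferon gamma response gene in CD4 T cells, Cxcl9, a chemokine, at 114 and 191 CPM, and 2 in B cells, Cxcl9 at 51.1 and 81.1 and Ido1 at 0.380 and 1.07. Of all genes, 2.12% were higher in CD4 T cells and 4.67% in B cells. In Treg Cxcl9 read 105 and 197 CPM, but in other T cells 216 and 199.95. In macrophages, where its level was far higher, it went the other way, at 4592 and 3294 CPM. Sensors and adaptors had medians of -0.06 in CD8 T cells (0 of 11 lower), -0.23 in CD4 T cells (1 of 11 lower) and -0.01 in B cells (0 of 12 lower, 1 higher). Ifnar1 read 46 and 56 CPM in CD8 T cells. In macrophages 1 of 6 receptor genes, 1 of 4 negative regulators, 4 of 12 sensors and adaptors and 1 of 10 interferon gamma response genes were past 1.5-fold lower, where 12.6% of all genes were.

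Interferon transcripts themselves were rare, and the direction of Ifnb1 differed by gate. Of 18 type I interferon genes, 11 had 0 UMIs in the kept cells of both libraries. Ifnb1 had 614 UMIs in 110 barcodes of WT NOD and 1641 in 277 of the other library, Ifna2 86 and 162 UMIs, and Ifnk 157 and 154. In macrophages Ifnb1 read 48.4 CPM (33.7 to 67.2) in WT NOD and 109 (94.2 to 126) in the other library, in cDC2 71.7 (51.7 to 97.0) and 30.5 (21.1 to 42.7), and in plasmacytoid DC there was 1 UMI in each. In Treg it read 14.2 and 0.711 CPM (34 and 3 UMIs) and in CD4 T cells 3.66 and 0.585 (34 and 6 UMIs). Most Ifnb1 UMIs, 355 and 1258, were in barcodes that passed 2 lineages, at 17.5 and 50.1 CPM.

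Other measures differed between the libraries as well. Islet endocrine genes (Ins1, Ins2, Gcg, Sst and Iapp, all 5 detected) summed to 84.5 CPM in WT NOD CD8 T cells and 169 in those of the other library, to 312 and 294 in CD4 T cells, 65.8 and 123 in B cells and 11416 and 12136 in macrophages. At 2000 UMIs they were found in 5.84% and 21.7% of CD8 T cells with fewer than 8 members, in 8.44% and 29.3% of such CD4 T cells and in 3.02% and 20.1% of such B cells. The median depth of CD8 T cells was 4919 and 5756 UMIs. Their part in the members' ratios was not tested. Without the 41 shared barcodes the counts of members lower by 1.5-fold or more were again 13, 17, 14 and 26 in CD8 T, CD4 T, B and macrophage gates.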

How the data were processed

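Per the labels' protocols, 2 single-cell 3′ (v3.1) libraries were made from sorted islet CD45+CD31- cells. The deposited values are counts of UMIs per gene and barcode, made by the authors with Cell Ranger 7.0.1 and the mm10 build, per the submitters' processing notes, with no normalization. Barcodes were kept with at least 500 genes and at most 10% mitochondrial UMIs. Cell types came from UMI thresholds on marker genes. The thresholds were set after seeing the data. Barcodes passing 2 lineages were left out as possible doublets. The members and gene lists, roles included, were chosen with earlier results of these data known.

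Counts were summed per gate and library and scaled to CPM with 95% Poisson intervals. Ratios used 1 CPM added to each value and genes with at least 10 UMIs over both libraries, in gates with at least 50 cells in each. A gene was counted as lower or higher past 1.5-fold. Cells were thinned to 2000 UMIs in 20 draws, and shares carry Clopper-Pearson intervals. All intervals cover counting error only. Thinning, ratios and concentrations were tested on simulated data.

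Named in full were the 8 members with the highest CPM, the 5 with the highest and the 5 with the lowest percent in the top 5% of cells, the 3 with the largest ratios each way in gates with at least 200 cells per library, and 10 genes outside the list. Gene positions came from GENCODE M21, which held 32235 of the gene IDs. Python 3.11.15, numpy 2.4.6, scipy 1.17.1, pandas 2.3.3, scanpy 1.11.5 and matplotlib 3.10.9 were used. Alternatives changed the added CPM, filters, fold, thinning depth, member threshold, cell-type rule, doublet filter and total.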

Additional observations from a re-analysis of the deposited data

How the results depend on the processing

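The order of the libraries turned without thinning for the share of cells with 8 or more members in CD8 T cells (47.3% and 51.7%) and other T cells (33.3% and 38.2%). The other results below kept their direction. Values are given as WT NOD and the library labelled NOD.Cxcl16-/-, for CD8 T, CD4 T, B and macrophage gates in that order. With 5 CPM added, members lower past 1.5-fold numbered 4, 8 and 6 in CD8 T, CD4 T and B cells, 0 were higher in CD8 T cells, and the CD8 T median log2 ratio was -0.24. With a fold of 2 they numbered 3, 3, 3 and 16, with 0 higher in CD8 T cells. The shares of all genes at these settings were not computed. Without cells of 8 or more members, the median log2 ratios were -0.14, -0.28, -0.16 and -0.32, and the summed CPM 3351 and 2632, 4138 and 3221, 2487 and 1959, and 3487 and 2852. Those cells were picked on the members themselves, and cells under 2000 UMIs were not scored and stayed in. With gates asking for double the marker level, added after seeing the data, the macrophage median was -0.44, 0 members were higher in CD8 T cells and 1 in macrophages, and the sums were 2806 and 2063 in B cells and 5189 and 3512 in macrophages. The summed CPM was 4198 and 3131, 5155 and 3534, 2805 and 2253, and 5700.0 and 3208 in cells thinned to 2000 UMIs, and 4281 and 3131, 5107 and 3582, 2878 and 2284, and 5629 and 3137 as the mean of single cells. It was 5379 and 3933, 6668 and 4729, 4173 and 2972, and 7273 and 4239 with immunoglobulin, T-cell receptor, mitochondrial and ribosomal protein genes left out of the total. With cell types from clusters it was 3603 and 2618, 5292 and 3622, and 2628 and 1953; no cluster could be named macrophage, so that gate has no such value. At least 1000 genes per barcode gave 3701 in WT NOD CD8 T cells, and leaving out the highest doublet scores gave 3805 there and 3416 in CD4 T cells of the other library. The share of cells with 5 or more members was 38.6% and 30.5%, 41.1% and 32.7%, 31.6% and 24.2%, and 69.5% and 43.3%. With 12 or more it was 2.39% and 0.325%, 2.22% and 0.516%, 1.16% and 0.164%, and 15.9% and 1.92%. With 8 or more in cells thinned to 4000 UMIs it was 31.5% and 24.2%, 33.7% and 24.7%, 26.02% and 17.8%, and 72.5% and 42.9%. The median percent in the top cells, thinned to 1000 UMIs, was 12.3% in WT NOD CD8 T cells, 7.62% in the other library's CD4 T cells, and 12.5% and 7.15% in B cells. In the top 1% of cells it was 3.75% and 2.22%, 4.28% and 2.18%, and 4.38% and 2.18% in CD8 T, CD4 T and B cells. Where a value moved, the cause was not tested. No paired analysis was possible because each group is 1 library, and for the same reason no replicate could be left out.

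Depth limited the small gates and the scarce members: at 2000 UMIs per cell only 30 of the 45 members had at least 50 UMIs over WT NOD CD8 T cells, and 3 over macrophages.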

Other observations

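Barcodes that passed no lineage rule, 1126 in WT NOD and 850 in the library labelled NOD.Cxcl16-/-, summed to 3888 CPM (3836 to 3941) and 2701 CPM (2664 to 2739) of member UMIs. Among the 482 and 633 of them with at least 2000 UMIs, 18.6% and 11.0% had 8 or more members, above the 9.42% and 4.75% of CD8 T cells. The 3 WT NOD monocytes read 17188 CPM (15661 to 18823) and the 8 of the other library 5019 (4558 to 5515), from too few cells to compare.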
